A study of Mus musculus with 6 samples.

Results

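The translation initiation and elongation factors are the proteins that load messenger RNA and initiator tRNA onto the ribosome and then drive it along the coding sequence. The members were the rows of the gene table whose symbol begins with Eif1 to Eif6, Eef1 or Eef2, together with Pabpc1 and Pabpc4. The eIF2 kinase genes, Eif2s3x, Eif2s3y and pseudogenes were left out. This gave 71 genes of 27179 in the table. Of these, 67 had at least 1 read and 63 passed the filter on low values, a normalized count of 10 or more in 3 or more libraries. The 8 that did not pass were Eif4e1b, an eIF4E relative with reads in WT replicate 1 alone, and 7 clustered chromosome 12 copies named Eif1ad2, Eif1ad3, Eif1ad4, Eif1ad6, Eif1ad7, Eif1ad8 and Eif1ad19. Of these copies, 4 had no read in any library.

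Messenger RNA had been sequenced from primary vascular smooth muscle cells of the mouse aorta, as 3 WT libraries and 3 that carry the label Bmal1 KO. Bmal1, listed under its older symbol Arntl, encodes the partner of CLOCK in the circadian clock. Every culture, of either label, had spent 7 days in the medium that the labels call diabetic, growth medium with 10% serum to which glucose (4.5 g/L) and hydrogen peroxide (0.3 mM) had been added. The allele or Cre driver behind the knockout, the strain, the age and the sex of the mice, and whether replicates are separate animals are not given in the labels. The p-values therefore reflect the scatter of these 6 libraries, part of which may be technical.

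Initiation starts when eIF2 carries the initiator tRNA to the small ribosomal subunit, where eIF1, eIF1A and the large eIF3 complex hold the scanning machinery together. The mRNA is brought in by eIF4E, which binds the cap, the scaffold eIF4G and the helicase eIF4A, and the poly(A)-binding proteins link the tail of the message to eIF4G. In elongation, eEF1A delivers aminoacyl-tRNAs, the eEF1B subunits recharge it with GTP, and eEF2 moves the ribosome to the next codon. TOR complex 1, a growth-control kinase, acts on this machinery through the 4E-BP inhibitors of eIF4E, and the messages of many elongation factors are among those whose translation it favours.

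Some facts of the libraries bear on every value. Recovered reads ran from 32503525 to 44657471 per library. Arntl was higher, not lower, under the Bmal1 KO label: it stood at 529, 619 and 590.4 normalized counts in WT and at 1036, 941 and 1036 in the others, so gene-level counts do not show the deletion that the label states. The same 3 libraries were apart in sex-linked RNA, with Xist at 12.4 to 89.9 in WT and 3842 to 3887 in the libraries labelled Bmal1 KO, and Ddx3y at 2784 to 3314 and 68.5 to 82.5. Genotype label and sex-linked expression therefore cannot be told apart. Among cell type markers, 7 of 7 smooth muscle genes rose (summed level 52090 to 58103 in WT and 147650 to 157068 in the libraries labelled Bmal1 KO), as were 5 of 6 endothelial genes (119 to 274 and 571 to 828) and 5 of 6 macrophage genes, with 1 lower (827 to 1032 and 1820 to 2052). Of 6 fibroblast genes 3 were higher and 3 lower (134050 to 154132 and 216843 to 231941), and no marker of these lists was at 0 in either group. Over all genes tested, 36.2% were higher, 34.9% lower and 71.1% called in either direction, so calls in such short lists are common. The part of the sex-linked and marker genes in the differences that follow was not tested.

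Translation factor transcripts took a smaller share of all reads in the libraries labelled Bmal1 KO. The 71 genes held 4.08%, 3.94% and 3.79% of reads in WT replicates 1, 2 and 3. In the libraries labelled Bmal1 KO they held 1.88%, 1.84% and 1.87%. The groups did not overlap, and the WT mean of 3.94% ± 0.146 was 2.11 times the other mean of 1.86% ± 0.0207 (SD, n = 3, exact two-sided permutation p = 0.1, the smallest that 3 libraries against 3 can give). Eef1a1 and Eef2 together made up most of this difference, and without them the shares were 1.84% ± 0.116 and 1.10% ± 0.0351. In bulk RNA, fewer cells of a type and less RNA per cell cannot be told apart.

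**Figure D1:**
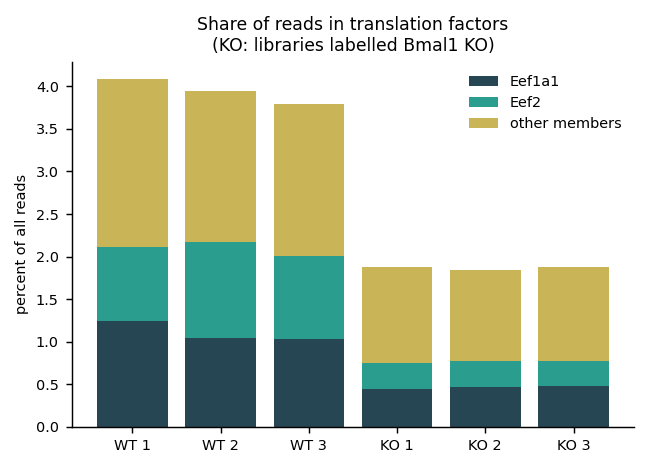
Percent of all recovered reads assigned to Eef1a1, Eef2 and the other translation factor genes, stacked, in each of the 6 libraries. The 3 WT bars reach 3.79% to 4.08% and the 3 bars of the libraries labelled Bmal1 KO reach 1.84% to 1.88%.

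Across single genes the balance was towards lower levels. Of 63 members tested with limma, 33 fell (52.4%), 9 rose (14.3%) and 21 did not pass. Over all 16086 genes tested, 34.9% fell and 36.2% rose. The members' share called in either direction, 66.7%, was near the background of 71.1%, so the count of calls as such is no result about the members; the direction was uneven. The 3 libraries of one label did not overlap the 3 of the other in 48 of 63 members (76.2%), against 76.7% of all genes tested. The median log2 difference, libraries labelled Bmal1 KO minus WT, was -0.31 for the members and -0.012 for all genes. A call with a log2 difference of -1 or below was made for 14 members (22.2%) and for 12.8% of all genes, and 1 member was called at 1 or above. The share of all genes called at 1 or above was not counted, so that single rise has no background beside it. Within WT, replicate 1 was the highest of the 3 libraries for 48 members, and without it 34 members fell, 11 rose and the median log2 difference of members was -0.23. How often replicate 1 was highest over all genes was not counted, so whether this is particular to the members is not known.

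**Figure D2:**
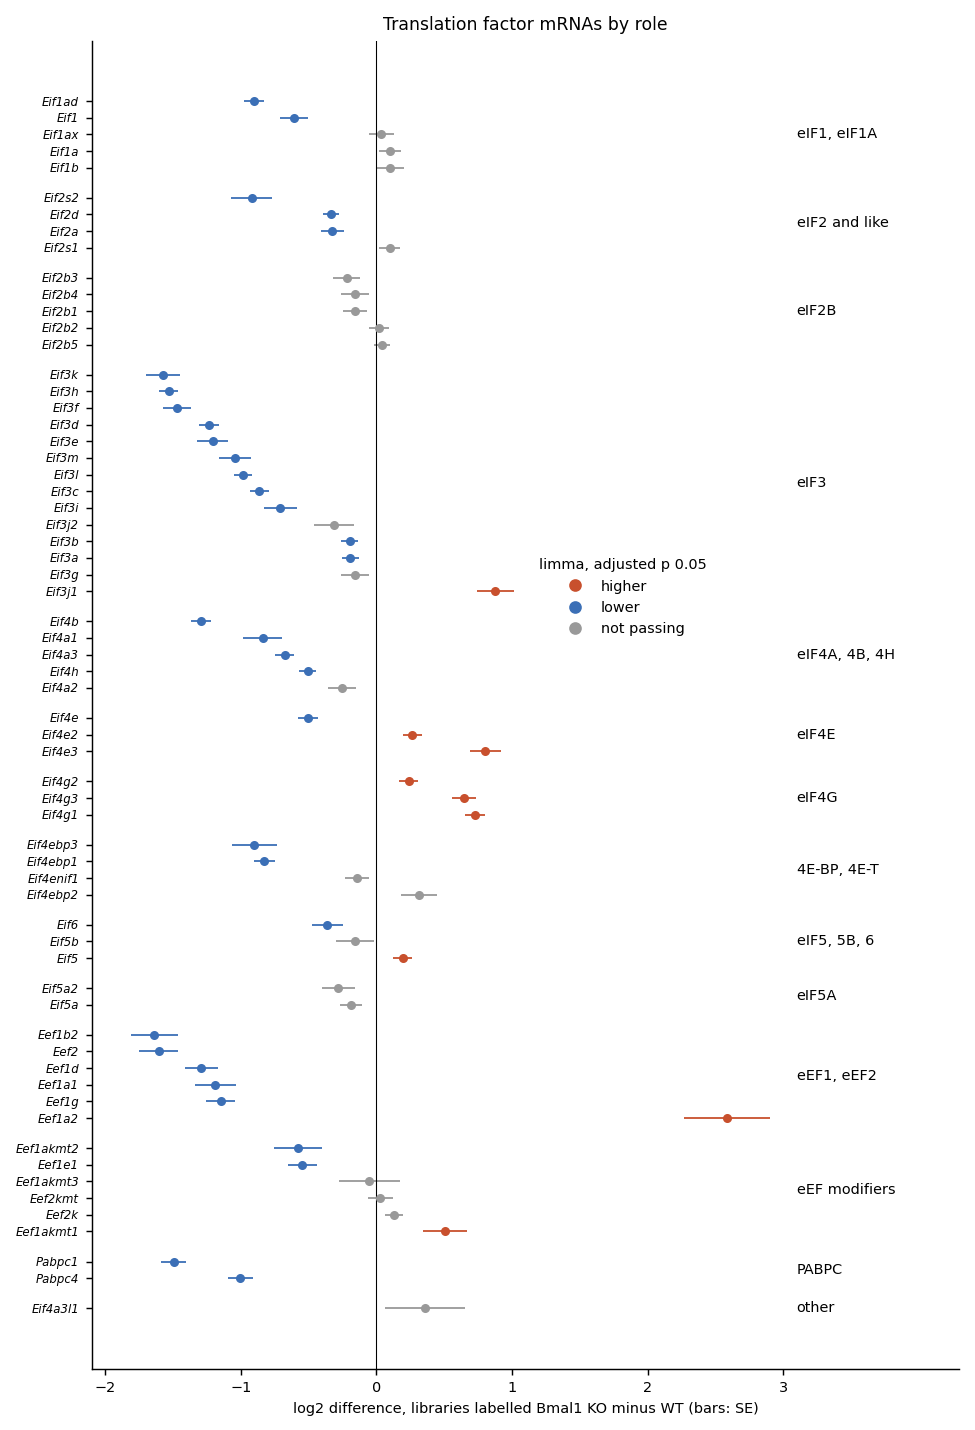
Log2 difference (libraries labelled Bmal1 KO minus WT, x axis) with its SE for each of the 63 members tested, grouped by role and coloured by the limma call at an adjusted p of 0.05. The eIF3, eEF and PABPC groups lie mostly left of 0, the eIF4G group lies right of it and the eIF2B group sits around it.

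The sequence around the gene starts gives context for these genes. The promoter table of RefSeq (build GRCm38.p6, 250 bases before to 50 after each annotated start) held 50 of the 71 members. The box CACGTG, which reads the same on both strands and is the E-box that CLOCK and BMAL1 as well as MYC proteins are known to bind, was present for 12 of these 50 (24.0%), against 8.09% of 27025 genes in the table. Among genes tested for expression, 12 of 47 members (25.5%) and 11.2% of 12174 genes held it. Of the 12 members, 7 fell, 1 rose and 4 did not pass. Over all 63 members tested, 52.4% fell, 14.3% rose and 66.7% were called, so this count is no result about the box. Calls among all genes with the box were not counted. The median log2 difference of the 12 was -0.39, against -0.20 for the 35 tested members without the box. Over all genes tested the medians were -0.11 with the box and 0.0075 without. A match is a description of letters and not a binding site. The boxes of the 8 members that passed the expression test are shown because they place Eif4g1, which rose, beside the 7 that fell. Each line gives the gene, its place and strand in GRCm38.p6, and the bases 5′ to 3′ on the gene's strand, with the box in capitals.
Eef2, chr10:81176576-81176605, plus strand: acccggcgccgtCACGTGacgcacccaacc
Eif3k, chr7:28981915-28981944, minus strand: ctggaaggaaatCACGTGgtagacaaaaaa
Eif3f, chr7:108934335-108934364, plus strand: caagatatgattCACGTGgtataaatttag
Eif3a, chr19:60790654-60790683, minus strand: ccgcgagggaatCACGTGgttccttccttt
Eif4a1, chr11:69672595-69672624, minus strand: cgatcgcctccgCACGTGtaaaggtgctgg
Eif4e, chr3:138527028-138527057, plus strand: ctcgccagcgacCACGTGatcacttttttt
Eif4e, chr3:138527192-138527221, plus strand: ggacacgtccgtCACGTGggcaggagccgg
Eif4h, chr5:134639488-134639517, minus strand: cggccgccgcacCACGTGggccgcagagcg
Eif4g1, chr16:20672661-20672690, plus strand: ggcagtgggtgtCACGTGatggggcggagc
Eif4g1, chr16:20672730-20672759, plus strand: ctctgcgccggtCACGTGgggcgctggctg

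The messages of many elongation factors and ribosomal proteins are known to open with a C and a run of pyrimidines, the TOP sequence. A C followed by C or T letters at the annotated start, at least 5 letters in all on the gene's strand, was found for 1 of 50 members (2.00%) and 3.01% of all genes in the table. That member was Eif3f, whose start is shown with the run of 11 letters in capitals. Annotated starts can miss the true first base, so the other members' starts say nothing about the run. The box TGATGCAA, a sequence of the kind that ATF4 binds, searched on both strands, was found for 2 of 50 members (4.0%) and 1.03% of all genes in the table. These were Eif1ad2 and Eif1ad6, which did not pass the filter on low values. Among genes tested for expression 0 of 47 members and 0.731% of all genes held it.
Eif3f, chr7:108934403-108934432, plus strand: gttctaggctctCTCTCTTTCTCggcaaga

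Eef1a1 and Eef2 had the most reads of all members, and both fell. Of the 6 core genes, 5 fell and Eef1a2 rose, with no overlap between the groups in any of them. Over all genes tested 34.9% fell, 71.1% were called and 76.7% had no overlap, so separation in so few genes is common here. Eef1a1, the main form of the tRNA-delivering factor (chromosome 9, 78478453 to 78481724 in GRCm38.p6), stood at 467204, 387986 and 369678 normalized counts in WT replicates 1, 2 and 3. In the libraries labelled Bmal1 KO it stood at 172014, 180142 and 182388. Every one of these lay below every WT library, a 2.29-fold fall (log2 difference -1.19, SE 0.15, limma with Benjamini-Hochberg adjusted p = 0.000247). Eef2, the translocase, was at 323014, 416616 and 355230 in WT and at 117331, 122937 and 117635 in the libraries labelled Bmal1 KO. Its fall was 3.06-fold and WT replicate 2 was the highest library, where for Eef1a1 it had been replicate 1.

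The 3 subunits of eEF1B, which reload eEF1A with GTP, fell together. Eef1b2 went from 77602, 51977 and 50635 to 21571, 17322 and 18076 normalized counts, 3.16-fold lower, with WT replicate 1 well above the other two. Eef1d fell 2.47-fold, from 18255 ± 3320 to 7385 ± 410 (SD, n = 3). Eef1g fell 2.23-fold, from 22274 ± 2984 to 10001 ± 823. Per kilobase of exon Eef1a1 was the most abundant member in WT, at 163774 ± 20793 normalized counts per kb, followed by Eef2 at 109793 ± 14306 and Eef1b2 at 23725 ± 6002. In the libraries labelled Bmal1 KO the order of the first 2 was the same, at 71473 ± 2189 and 35891 ± 948, and Eif5a came next at 10860 ± 582.

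Eef1a2 encodes the form of eEF1A that replaces Eef1a1 in heart, skeletal muscle and neurons. It was low in WT, at 698, 315 and 775 normalized counts, and reached 3034, 2959 and 4118 in the libraries labelled Bmal1 KO. The groups did not overlap although WT replicate 2 was low, and the rise was 5.66-fold (log2 difference 2.58, SE 0.32, limma adjusted p = 0.000203). It was the only member called with a log2 difference above 1. Eef1a2 still made up only 1.73%, 1.62% and 2.21% of the counts of Eef1a1 plus Eef1a2 in the libraries labelled Bmal1 KO, against 0.149%, 0.0812% and 0.209% in WT (exact two-sided permutation p = 0.1).

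The enzymes that modify the elongation factors moved less and in both directions. Eef2k, the kinase that inhibits eEF2, was at 1938 ± 99.8 in WT and 2120 ± 63.4 in the libraries labelled Bmal1 KO and did not pass (limma adjusted p = 0.105), nor did the eEF2 methyltransferase gene Eef2kmt or the eEF1A methyltransferase gene Eef1akmt3. Eef2k was called higher with upper-quartile scaling (limma adjusted p = 0.0414) and lower with the length and GC trend taken out and the median not kept (0.0213). Eef1akmt1 rose 1.40-fold, from 423 ± 98.1 to 592 ± 42.8. Eef1akmt2 fell 1.51-fold, from 468.5 ± 112 to 309.5 ± 33.9. The Eef1akmt1 call was lost without WT replicate 2 or 3 or Bmal1 KO replicate 1 or 3 (limma adjusted p from 0.0585 to 0.0735), and the Eef1akmt2 call without Bmal1 KO replicate 2 or 3 (0.064 and 0.0611). Eef1e1, which encodes a scaffold protein of the aminoacyl-tRNA synthetase complex rather than an elongation factor, fell 1.47-fold.

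**Figure D3:**
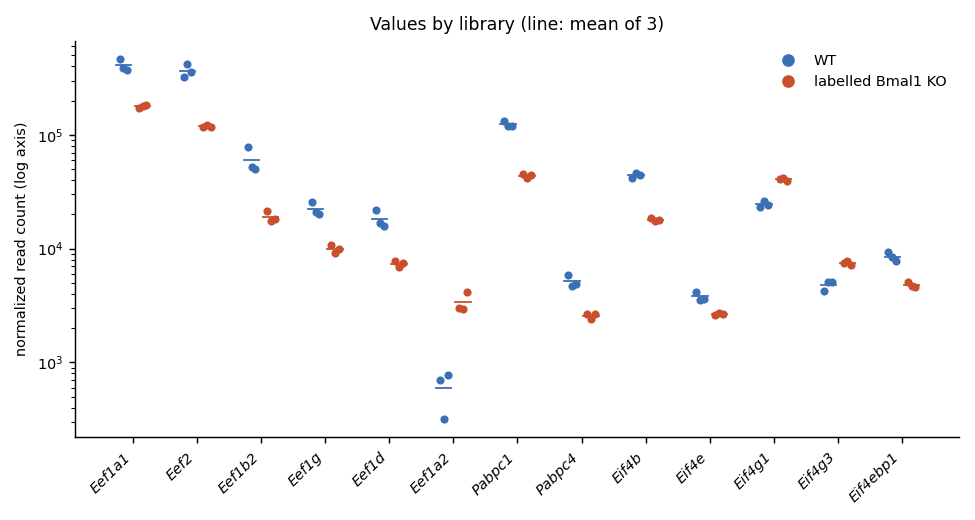
Normalized read counts (log axis) of 13 members in each library, with points for single libraries and lines for the means of 3. Eef1a2, Eif4g1 and Eif4g3 lie higher in the libraries labelled Bmal1 KO and the other 10 lie lower, with no overlap between the groups for any of the 13. Over all genes tested, 76.7% had groups that did not overlap.

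The cytoplasmic poly(A)-binding proteins, which coat the tail of the mRNA, both fell. Pabpc1 was at 131417, 119910 and 119402 normalized counts in WT and at 45645, 41415 and 44418 in the libraries labelled Bmal1 KO. This 2.82-fold fall (SE of the log2 difference 0.094, limma adjusted p = 5.5e-06) was far larger than the spread of either group. Pabpc4 was at 5844, 4708 and 4912 and then at 2641, 2391 and 2656, a fall of 2.01-fold. The ratio of Pabpc1 to Pabpc4 within a library was lower in the libraries labelled Bmal1 KO by 0.49 on the log2 scale (Bmal1 KO minus WT -0.49).

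The eIF3 complex, the scaffold on which the initiation machinery assembles, was the initiation factor group with the most genes and the most genes lower. Of its 14 genes 11 fell (78.6%), 1 rose and 2 did not pass, against 34.9% lower over all genes tested. The share lower was much the same in smaller groups, 80% of 5 genes of eIF4A and its cofactors and 75% of 4 genes of eIF2 and like tRNA carriers. The median log2 difference of the eIF3 genes was -0.92. The core of the complex is an octamer of the subunits a, c, e, f, h, k, l and m. All 8 octamer genes fell, with a median of -1.13, but by unequal amounts. Eif3k fell most, 3.00-fold, from 13015, 9913 and 9292 to 3751, 3328 and 3646 normalized counts. Eif3h fell 2.89-fold, from 22677, 22033 and 20383 to 7891, 7128 and 7498, and had the smallest adjusted p of all members (1.1e-06). Eif3f fell 2.79-fold, from 29812, 24395 and 22349 to 9199, 9357 and 8863. In none of these did the groups come near each other.

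The other octamer genes formed a series of smaller falls. Eif3e was 2.33-fold lower, Eif3m 2.08-fold, Eif3l 1.98-fold (14162 ± 904 to 7146 ± 138) and Eif3c 1.82-fold (22415 ± 1474 to 12302 ± 299). Eif3a, the largest subunit and the backbone of the octamer, fell only 1.14-fold, from 24457, 23819 and 23488 to 21172, 21153 and 20456. The Eif3a groups did not overlap, but its call was lost without any 1 of the libraries labelled Bmal1 KO (adjusted p from 0.071 to 0.106).

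Outside the octamer the subunits moved apart. Eif3d, which can bind the cap of some messages, fell 2.36-fold, from 11049 ± 908 to 4689 ± 99.5 (SD, n = 3), and Eif3i fell 1.65-fold. Eif3b fell 1.15-fold, from 13968 ± 718 to 12166 ± 217, and this call was lost with the length and GC trend taken out and the median kept (limma adjusted p = 0.212), without WT replicate 2 (adjusted p = 0.0531) and without any 1 of the libraries labelled Bmal1 KO (0.0608 to 0.086). Eif3g stood at 5749 ± 844 and 5130 ± 286 and did not pass, and the sign of its difference depended on whether the median was kept when the length and GC trend was taken out (log2 0.015 kept, -0.24 not kept). Eif3j1, a loosely attached subunit gene, rose 1.83-fold, from 521, 375 and 450 to 803, 748 and 910, while its intronless relative Eif3j2, at 1592 ± 345.5 and 1264 ± 98.9, did not pass. Eif3j2 was called lower with edgeR (adjusted p = 0.0495), total-read scaling (0.0399), either removal of the length and GC trend and without WT replicate 2 (0.0163). Eif3j1 and Eif3j2 share sequence, so the split of reads between them is uncertain. Among the 12 other subunits the highest level per kilobase was 8.24 times the lowest in WT (Eif3h over Eif3i) and 5.17 times in the libraries labelled Bmal1 KO (Eif3h over Eif3m). These ratios depend on the length used, the union of exons. That union was 3702 bases for Eif3i and 1612 for Eif3h, whereas their longest coding transcripts had 1123 and 1295.

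**Figure D4:**
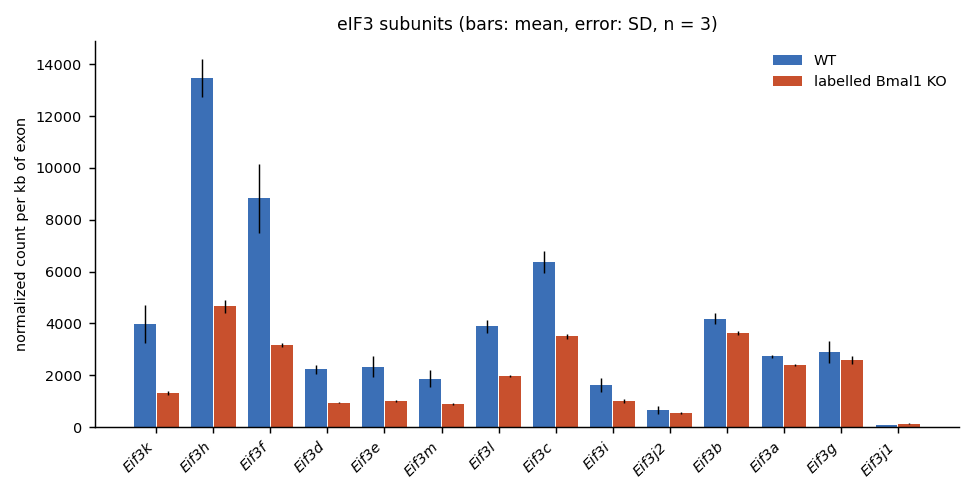
Normalized counts per kilobase of exon for the 14 eIF3 genes, ordered from the most negative log2 difference to the most positive, as means of 3 libraries with SD. The gap between WT and the libraries labelled Bmal1 KO is wide from Eif3k to Eif3c and narrow for Eif3b, Eif3a and Eif3g.

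The eIF4G genes went the other way. All 3 rose in the main test, against 36.2% of all genes tested, but only the Eif4g1 call was kept under every alternative. Eif4g1, the main bridge between cap, helicase and eIF3, was at 23418, 26247 and 24268 normalized counts in WT and at 40673, 41759 and 39637 in the libraries labelled Bmal1 KO. The lowest of the latter was far above the highest WT library, a 1.65-fold rise (log2 difference 0.72, SE 0.075, limma adjusted p = 8e-05). Eif4g3, a close relative, rose 1.56-fold, from 4216, 5121 and 5117 to 7423, 7852 and 7226. Eif4g2, which lacks the part that binds eIF4E, rose 1.18-fold, from 35374, 34565 and 35848 to 41805, 41448 and 41418.

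The eIF4G calls were not equally firm. These genes have long transcripts, and the 3 log2 differences were lower once a loess trend on length and GC was taken out. With the median of all genes not kept, the Eif4g2 difference turned to -0.17 (adjusted p = 0.134) and the Eif4g3 call was lost (log2 difference 0.12, adjusted p = 0.189). With that median kept, Eif4g2 was at 0.089 (adjusted p = 0.209). The Eif4g2 call was also lost with total-read scaling (adjusted p = 0.0606) and without any 1 of the libraries labelled Bmal1 KO (0.0616 to 0.0633).

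The cap-binding proteins themselves were split. Eif4e, the canonical cap-binding protein, fell 1.43-fold, from 4184, 3568 and 3636 to 2624, 2694 and 2670. Eif4e2, a relative that represses translation of its targets, rose 1.20-fold, from 2946, 2888 and 2923 to 3829, 3313 and 3400. Its direction turned when the length and GC trend was removed without keeping the median (log2 difference -0.079, adjusted p = 0.428), and its call was lost with the median kept (adjusted p = 0.0592). Eif4e3 rose 1.75-fold from a low level, 290, 267 and 247 against 450.4, 506 and 448. Within libraries the log2 ratio of Eif4e to Eif4e2 was 0.38 ± 0.11 in WT and -0.40 ± 0.13 under the Bmal1 KO label (SD, n = 3), so that the more numerous of the 2 counts changed.

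Of 4 genes for proteins that bind and restrain eIF4E, 2 fell and 2 did not pass with limma. Eif4ebp1, a main target of TOR complex 1, fell 1.78-fold, from 9316, 8465 and 7740 to 5041, 4714 and 4604 (log2 difference -0.83, SE 0.080, adjusted p = 5.5e-05). Eif4ebp3 fell 1.85-fold at a low level, from 317 ± 27.7 to 171 ± 33.7. Eif4ebp2, at 1098, 1618 and 1423 in WT and 1689, 1668 and 1725 in the libraries labelled Bmal1 KO, did not pass with limma (adjusted p = 0.0621), although the groups did not overlap. Eif4ebp2 was called higher with DESeq2 (adjusted p = 0.0481), upper-quartile scaling (0.0382), the length and GC trend taken out with the median kept (0.0357) and without WT replicate 2 (0.0101). The replicate block also gave this call. Without the low WT replicate 1 the log2 ratio of Eif4ebp1 to Eif4ebp2 was still lower in the libraries labelled Bmal1 KO (Bmal1 KO minus WT -0.92, against -1.14 with all libraries). Eif4enif1, which carries eIF4E into the nucleus, did not pass (log2 difference -0.14), and was called lower without WT replicate 1 (limma adjusted p = 0.00784) and under either removal of the length and GC trend.

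The helicase eIF4A and its cofactors were lower. Eif4b, which stimulates the helicase, fell 2.45-fold, from 41931, 45854 and 44660 to 18772, 17341 and 17885 (adjusted p = 3.1e-06). The related cofactor gene Eif4h fell 1.42-fold, from 13576 ± 581 to 9544 ± 318, and the log2 ratio of Eif4b to Eif4h went from 1.70 ± 0.089 to 0.91 ± 0.010. Eif4a1 fell 1.80-fold, from 6330, 4533 and 4940 to 3368, 2574 and 2846. Eif4a2, which can replace it in the complex, was at 12142, 9151 and 10687 in WT and 9149.8, 8769 and 8698 in the libraries labelled Bmal1 KO, where WT replicate 2 and Bmal1 KO replicate 1 all but met. Eif4a2 did not pass with limma (adjusted p = 0.0507), but was called lower with edgeR on recovered reads (adjusted p = 0.026), DESeq2 and voom. It was also called lower with TMM or total-read scaling, a pseudocount of 8, the replicate block and either removal of the length and GC trend. The same held without WT replicate 2. Eif4a3, the helicase of the exon junction complex, fell 1.60-fold, and its intronless relative Eif4a3l1 stood at 32.4 to 62.2 in all libraries and did not pass.

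Factors that carry and place the initiator tRNA were mixed. Eif2s2, the beta subunit of eIF2, fell 1.92-fold, from 7511, 4870 and 5483 to 3345, 2887 and 3065, with WT replicate 1 high. Eif2s1, the alpha subunit and target of the stress kinases, was at 3410 ± 247 and 3644 ± 203 (SD, n = 3) and did not pass. The gamma subunit is encoded by the X-linked Eif2s3x and the Y-linked Eif2s3y, which are not members. Eif2s3x was at 967 ± 72.8 in WT and 1900 ± 109 in the libraries labelled Bmal1 KO, and Eif2s3y at 2178 ± 389 and 101 ± 22.8. Their sum was 3545, 2752 and 3139 in WT and 1911, 2104 and 1989 in the libraries labelled Bmal1 KO (exact two-sided permutation p = 0.1). The initiator tRNA carriers outside the eIF2 complex, Eif2a and Eif2d, fell 1.26-fold each.

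The exchange factor eIF2B, which reloads eIF2 with GTP, had log2 differences between -0.22 and 0.038. None of its 5 genes passed the limma test, and 0 of 5 were below an unadjusted p of 0.05. On recovered reads edgeR called 1 of the 5, Eif2b3, and DESeq2 and voom called 0. The scaling moved these counts: 2 were called lower with total-read scaling, 3 lower with the length and GC trend taken out and the median not kept, and 2 higher with it taken out and the median kept. Eif2b3 had the largest difference, 853 ± 106 in WT and 729 ± 22.9 in the libraries labelled Bmal1 KO (log2 difference -0.22, adjusted p = 0.0845). Eif2b1, Eif2b2, Eif2b4 and Eif2b5 had log2 differences of -0.16, 0.019, -0.16 and 0.038.

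Among the start codon factors, Eif1 fell 1.53-fold, from 14506, 11562 and 11708 to 8968, 7637 and 8129, while its relative Eif1b was at 1263 ± 164 and 1350 ± 67.8 and did not pass. Eif1b was called higher without WT replicate 1 (log2 difference 0.21, limma adjusted p = 0.0222, against 0.10 with all libraries) and with the length and GC trend taken out and the median kept (0.30, adjusted p = 0.000954). The log2 ratio of Eif1 to Eif1b was nearly the same in the 3 WT libraries, 3.32, 3.31 and 3.32, and was 2.66, 2.58 and 2.58 in the others. Eif1a and the X-linked Eif1ax, which encode almost the same protein, did not pass, at 7172 ± 717 and 7654 ± 296 for Eif1a and 3606 ± 422 and 3681 ± 212 for Eif1ax. Eif1a was called higher without WT replicate 1 (limma adjusted p = 0.028). Eif1ax was called lower with the length and GC trend taken out and the median not kept (log2 difference -0.26, adjusted p = 0.0153). Eif1ad, an RNA-binding relative of eIF1A, fell 1.87-fold, from 2169 ± 136 to 1159 ± 67.6. Among the factors that act at subunit joining, Eif5, which triggers GTP hydrolysis on eIF2, rose 1.14-fold, from 7948 ± 639.8 to 9072 ± 145 (limma adjusted p = 0.0386). The Eif5 call was lost with TMM scaling (0.0617), edgeR (0.076), total-read scaling, voom and either removal of the length and GC trend. Eif5 also lost its call without any 1 library except WT replicate 1 (0.0904 to 0.117). Its log2 difference turned to -0.10 when that trend was taken out and the median of all genes was not kept. Eif6, which keeps free large subunits from joining, fell 1.30-fold, from 7638, 6041 and 5601 to 5194, 4904 and 4785. The Eif6 call was lost when the length and GC trend was taken out with the median kept (limma adjusted p = 0.0625), without Bmal1 KO replicate 2 (0.059) and without Bmal1 KO replicate 3 (0.0691). The joining factor gene Eif5b, at 9083 ± 2014 and 8029 ± 391, did not pass, and its log2 difference went from -0.16 to 0.018 without WT replicate 1.

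Eif5a, the hypusine-containing factor that helps the ribosome through difficult stretches, differed little beside the other abundant members. It was at 31698, 28398 and 28270 in WT and 26708, 24222 and 26516 in the libraries labelled Bmal1 KO (log2 difference -0.19, adjusted p = 0.065). With edgeR on recovered reads Eif5a passed (adjusted p = 0.0376). Its relative Eif5a2 was at 615 ± 54.1 and 507 ± 65.1 and did not pass either (adjusted p = 0.0677). Both genes were below an unadjusted p of 0.05. On recovered reads edgeR and voom called both and DESeq2 called Eif5a alone.

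Ratios between related factors do not depend on how libraries are scaled to each other. For 11 of 14 pairs the WT ratios lay wholly to one side of the other 3 libraries, each with an exact two-sided permutation p of 0.1, the smallest possible, and a Benjamini-Hochberg adjusted value of 0.127 over the 14 pairs. This is 78.6% of the pairs. For single genes, a measure other than a ratio, 76.7% of all genes tested had groups that did not overlap, so the count is no result about the pairs. The log2 ratio of Eef1a1 to Eef1a2 had the largest difference, from 9.51 ± 0.69 in WT to 5.74 ± 0.24 under the Bmal1 KO label (SD, n = 3). The ratio of Eif4e to Eif4e3 went from 3.82 ± 0.074 to 2.51 ± 0.086, and that of Eif4a1 to Eif4a2 from -1.02 ± 0.087 to -1.61 ± 0.16. The pairs whose ratios overlapped were Eif4a1 and Eif4a3, Eif4g1 and Eif4g3, and Eif5a and Eif5a2.

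**Figure D5:**
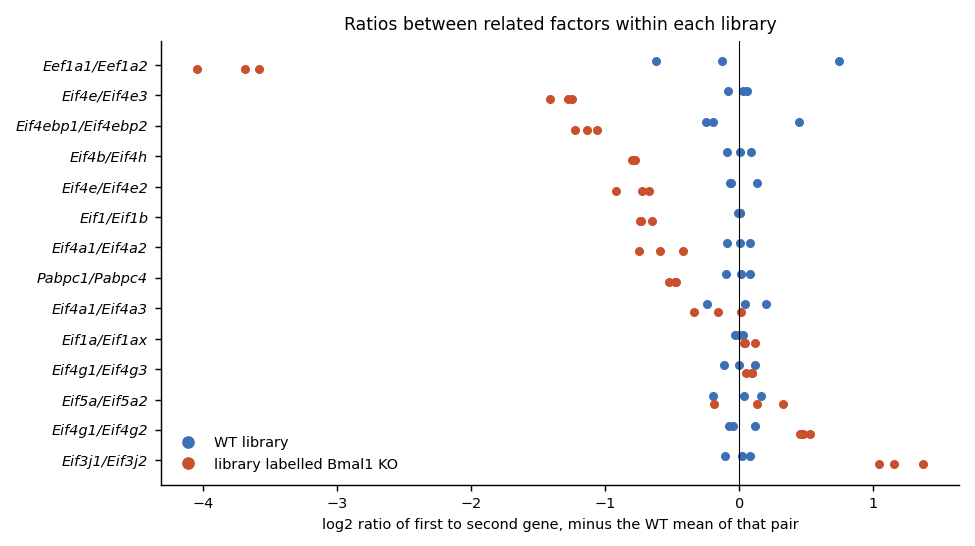
Log2 ratio of the first to the second gene of 14 pairs in each library, with the WT mean of the pair set to 0 (x axis). Points of the libraries labelled Bmal1 KO lie left of the WT points for 8 pairs, right of them for 3 and among them for 3.

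Genes that act on or beside the members were read from 6 lists of 52 genes. In all, 7 rose and 25 fell, and the other 20 missed the threshold. Thus 13.5% rose and 48.1% fell, against 36.2% and 34.9% of all genes tested, and the 61.5% called in either direction is below the background of 71.1%. Their median log2 difference was -0.27. In the list of eIF2 kinases, phosphatase subunits and eIF2 gamma, 3 of 8 rose and 4 fell. These counts, and those of the 52 genes, include the X-linked Eif2s3x among the rises and the Y-linked Eif2s3y among the falls. For both, genotype label and sex-linked expression cannot be told apart. Ppp1r15a (GADD34), the stress-induced phosphatase subunit that restores eIF2, fell 2.39-fold, from 2857 ± 154 to 1196 ± 60.5 (SD, n = 3). The kinase gene Eif2ak2 (PKR) rose 1.35-fold.

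Of 14 genes of TOR complex 1, its inputs and its targets, 3 rose, 4 fell and 7 did not pass. Rps6, which encodes a protein of the small ribosomal subunit, fell 4.27-fold, from 1519 ± 269 to 356 ± 7.33. Sequence shared with other genes was counted for the members only, so it is not known for Rps6. The S6 kinase gene Rps6kb1 fell 1.57-fold, whereas Mtor itself rose 1.52-fold and its inhibitor Deptor 1.39-fold. The Mtor and Deptor calls were lost when the length and GC trend was removed without keeping the median (adjusted p = 0.24 and adjusted p = 0.402). Of 5 eIF4E kinases and partners of the poly(A)-binding proteins, Paip2b, an inhibitor of PABP, fell 1.91-fold and Mknk1 1.37-fold, and 3 did not pass.

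The factors that end translation and recycle ribosomes mostly did not pass, with 1 of 7 higher, 2 lower and 4 not passing. The release factor gene Gspt1 (eRF3a) rose 1.45-fold, from 6373 ± 194 to 9235 ± 267 (SD, n = 3), and its intronless relative Gspt2 fell 1.37-fold. Mcts2, a recycling factor gene, fell 3.17-fold. Among 9 genes that make hypusine on eIF5A or diphthamide on eEF2, 6 fell and 3 did not pass, with Dph7, Dph1 and Dph5 lower by 1.77-fold, 1.79-fold and 1.67-fold and Dhps, the first hypusine enzyme, by 1.40-fold. Of 9 mitochondrial translation factors 7 fell and 2 did not pass, led by Mtrf1l, Mtif3, Mtrf1 and Tsfm, lower by 1.79-fold, 1.83-fold, 1.82-fold and 1.71-fold. Beside the counts of these lists, 34.9% of all genes tested fell and 71.1% were called in either direction.

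Several members have near-identical copies elsewhere, which makes their counts uncertain because how reads with several matches were treated is not given in the labels. The share of 50-base words of the longest coding transcript that GENCODE transcripts of another gene also hold was 91.9% for Eif3j2, 70.3% for Pabpc4, 65.5% for Eif4ebp3, 65.3% for Eif4a1, 64.3% for Eef1g, 59.2% for Eef1a1 and 39.8% for Eif3j1. It was 7.86% for Eef2, 5.98% for Eef1b2, 1.31% for Eif4b and 0% for Eef1a2. It lay between these for other members that fell: 37.3% for Eif3m, 31.6% for Eif1, 27.8% for Eif2s2, 26.2% for Eif3h, 24.4% for Eif4a3, 22.0% for Eif3e and 20.7% for Pabpc1. Eif4a3l1, which did not pass, was at 48.9%. By this count of words the transcripts of Eef2, Eef1b2, Eif4b and Eef1a2 are mostly unshared. Single reads were not examined, and the part of shared sequence in the differences was not tested.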

How the data were processed

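Messenger RNA libraries were made with an Illumina stranded mRNA kit from 1.0 µg of RNA, per the labels' protocols, and all 6 share 1 batch label. Trimmomatic, HISAT2, featureCounts and the build mm10 are named per the submitters' processing notes; for versions, annotation and strand setting, nothing is given in the sources used here. How the authors scaled the deposited signal is not stated in the labels. From the values it is a read count per gene divided by 1 factor per library. Whole reads were recovered for 100% of values (tolerance 0.01), with totals of 32503525 to 44657471 reads per library. In all 6 libraries the factor matched the median ratio of a library's reads to each gene's geometric mean over libraries (1.09035 by either route in WT replicate 1). No column was left unmapped.

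The log2 of the value plus a pseudocount of 1 was tested with limma 3.58.1 (R 4.3.3, empirical Bayes with trend, group only) for 16086 genes that reached 10 in 3 or more libraries, with Benjamini-Hochberg adjustment over all of them and a threshold of 0.05. Per-library shares and ratios were tested with an exact permutation test. Alternatives were TMM, upper-quartile and total-read scaling, edgeR 4.0.16, DESeq2 1.42.0 and voom on recovered reads (edgeR called 11479 genes), other filters and pseudocounts, a replicate block, removal of a length and GC trend (values for 92.5% of genes tested) and leaving out each library. The fit was also run on simulated counts with few genes changed, equally up and down. In these libraries 71.1% of genes tested were called, so that run does not check the scaling here. No 2 libraries of a group agreed within sampling noise.

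Levels per kilobase use the union of exons, which can be longer than a single transcript, so orders and ratios of these levels between genes depend on it. Names and promoters are from RefSeq, GRCm38.p6, which matched all 71 members, and shared sequence was counted in GENCODE M21 transcripts. Members and lists were chosen with earlier results of these data known. Named in full were the members with most reads, those with the smallest adjusted p, both genes of each pair, members whose call changed under an alternative, and up to 4 genes of each other list by smallest adjusted p.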

Additional observations from a re-analysis of the deposited data

How the results depend on the processing

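Over 19 alternatives, 33 of the 42 called members kept call and direction, 29 of the 33 lower and 4 of the 9 higher (Eef1a2, Eif3j1, Eif4e3 and Eif4g1). Removing the length and GC trend without keeping the median of all genes moved that median from -0.012 to -0.27. It left 5 members higher and 45 lower, a members' median of -0.60, 3 genes of the other lists higher, and 4453 genes higher and 7736 lower over all genes, against 5816 and 5619; the cause was not tested. Under it the differences of Eif1a (-0.15), Eif1ax (-0.26), Eif2s1 (-0.17), Eif2b2 (-0.070), Eif2b5 (-0.056), Eif4e2 (-0.079), Eif4g2 (-0.17), Eif5 (-0.10), Eef2k (-0.23) and Eef2kmt (-0.074) turned negative. With the median kept, Eif1ax (-0.00023), Eif2b1 (0.011), Eif3g (0.015) and Eef1akmt3 (0.12) changed sign. So did Eif1ax (-0.039), Eif2b2 (-0.055), Eif2b5 (-0.035) and Eef2kmt (-0.045) with total-read scaling, Eif2b2 (-0.012) and Eef2kmt (-0.0016) with TMM, Eif2b2 (-0.013) and Eef2kmt (-0.0022) with edgeR, and Eif2b2 (-0.011) with voom. Without Eef1a1 and Eef2 the difference in share of reads was -0.74 percentage points, against -2.07, by construction. Leaving out 1 library at a time gave 6 to 11 members higher, 29 to 34 lower, a median of -0.36 to -0.23, and 6 to 9 genes of the other lists higher. The sign depended on the library left out for Eif1ax (-0.034 to 0.13), Eif2b2 (-0.038 to 0.061), Eif5b (-0.26 to 0.018), Eef1akmt3 (-0.18 to 0.023), Eef2kmt (-0.0100 to 0.0798), and for the paralog ratio Eif5a/Eif5a2 (log2, -0.026 to 0.23, 0.091 with all). The replicate numbers did not pair the libraries: same-numbered libraries correlated at -0.0045, 0.026 and 0.084, and not every library correlated best with its own number. With the replicate block 10 members were higher and 35 lower, and 11556 genes were called.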
